A study of Rattus norvegicus with 30 samples.

Results

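The miR-200 family is a group of 5 epithelial miRNAs, rno-miR-200a, rno-miR-200b, rno-miR-429, rno-miR-200c and rno-miR-141, written below without the species prefix. They were taken by name, without star strands, from miRNA arrays of rat liver. All 5 were measured on the hepatectomy arrays, among 388 miRNA names, and on the sham arrays, among 680 names. Livers came from male Wistar rats. They had undergone 70% partial hepatectomy, after which the remaining lobes regrow, or sham laparotomy, in which the abdomen is opened and the liver is left whole. Hepatectomy livers were taken at 0, 2, 6, 12, 24 and 48 h and 5 d, and sham livers at 12, 24 and 48 h, with 3 arrays in each of the 10 groups. The labels call these arrays biological replicates, and the sources used here do not state the age of the animals. RNA came from whole liver, so each value is a sum over all its cell types.

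miRNAs of this family bind the mRNAs of Zeb1 and Zeb2, repressors of E-cadherin, and thereby help to hold cells in an epithelial state. Zeb1 and Zeb2 in turn repress the family's genes, so the repression is mutual. In liver, the bile duct cells (cholangiocytes) are the epithelium known for the family, and hepatocytes carry little of it. The family's genes form a pair of clusters, and its mature strands form a pair of seed groups. miR-200b, miR-200c and miR-429 share a seed, and miR-200a and miR-141 share another.

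The clusters lie on different chromosomes of the RefSeq rat assembly GRCr8, where all 5 hairpin genes matched by symbol. Mir200c and Mir141 stand on the minus strand of chromosome 4, with 346 bases between their hairpins, and the nearest annotated genes are Phb2 and Ptpn6. Mir200b, Mir200a and Mir429 stand on the minus strand of chromosome 5 within the span of Ttll10, with 689 bases between the hairpins of Mir200b and Mir200a and 950 between those of Mir200a and Mir429. The mature strands of the chromosome 4 cluster are shown first, because miR-141 is the only member called below and miR-200c is its neighbour in the cluster. Capitals mark the seed, bases 2 to 8 from the 5′ end.
rno-miR-141-3p: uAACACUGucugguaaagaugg
rno-miR-200c-3p: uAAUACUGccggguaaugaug
These lie at chr4:159209540-159209561 for miR-141 and chr4:159209969-159209989 for miR-200c, both on the minus strand. Aligned from the 5′ end and counted from there, they are identical at 17 of 21 positions. The 4 differences, with miR-200c as the first base, are U4C, C9U, G11U and U17A, and U4C lies in the seed.

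The sham arrays also carried the passenger (star) strands of 4 members, and their RefSeq 5p sequences are shown because they were measured beside the family.
rno-miR-200a-5p: cAUCUUACcggacagugcugg
rno-miR-200b-5p: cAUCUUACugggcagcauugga
rno-miR-200c-5p: cGUCUUACccagcaguguuug
rno-miR-141-5p: uCCAUCUUccagugcaguguug
miR-200a-5p and miR-200b-5p have the same seed and are identical at 16 of 21 positions, while the seeds of miR-200c-5p and miR-141-5p differ from it and from each other.

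Each array gave many spots per miRNA name, 15 on the hepatectomy layout and 22 on the sham layout. Median raw intensity per array was 976 to 1328 on 13 hepatectomy arrays, 544 to 608 on the other 8, and 296 to 408 on the 9 sham arrays. The 3 arrays at 24 h after hepatectomy were all among the brighter 13. To subtract background, the authors took 1 constant per array off the median of a name's raw spots. That constant is used here as the only available mark of background, since the files analysed here hold no detection flags. miR-122, the defining miRNA of hepatocytes, stood above the constant on all 30 arrays, by 640 to 43442 units after hepatectomy and by 3005 to 23246 after sham. All hepatectomy arrays had the first layout and all sham arrays the other, so operation and layout cannot be told apart.

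The family lay close to background, except for miR-200b on some sham arrays described below. On the hepatectomy arrays its raw medians were 0.809 to 1.18 times the median of all names on the same array, and 94 of 105 values exceeded the constant, with a median excess of 104 units and a range of -56 to 312. An excess of this kind was common, since 89.9% of all names lay above the constant on the median hepatectomy array (33.5% to 99.5% over the 21). On the sham arrays the family's raw medians were 0.784 to 1.53 times the median of the same array. There 31 of 45 values exceeded the constant, with a median excess of 12 units over all 45 and a range of -28 to 252. Of all names, 81.8% lay above the constant on the median sham array (39% to 87.1% over the 9). By member, miR-200a exceeded the constant on 20 of 21 hepatectomy and 9 of 9 sham arrays, miR-200c on 19 and 7, miR-200b on 18 and 6 and miR-141 on 18 and 6. miR-429 exceeded it on 19 of 21 hepatectomy arrays but on 3 of 9 sham arrays. In whole liver RNA, fewer cells of a type and less miRNA per cell cannot be told apart.

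None of the 5 members passed the test for a difference among the 7 hepatectomy times. limma's moderated F test gave adjusted p = 0.601 for miR-141, 0.702 for miR-200c, 0.866 for miR-200b, 0.922 for miR-429 and 0.947 for miR-200a, and none had an unadjusted p under 0.05. The same test called 9 of 388 names, or 2.32%, and 43 had an unadjusted p under 0.05. The range of a member's group means over the 7 times was 0.22 for miR-200a, 0.26 for miR-200b, 0.37 for miR-429, 0.40 for miR-200c and 0.54 for miR-141 on the log2 scale. The median range over all 388 names was 0.41, so the 3 chromosome 5 members and miR-200c lay below it and miR-141 above it.

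In the chromosome 5 cluster, miR-200a, which shares its seed with miR-141, had normalized log2 levels of 7.91 ± 0.26 in the 0 h group and then 7.78 ± 0.22, 7.80 ± 0.12, 7.86 ± 0.16, 7.73 ± 0.05 and 7.91 ± 0.12 at 2, 6, 12, 24 and 48 h and 7.95 ± 0.26 at 5 d (SD, n = 3 at each time). miR-200b, of the seed group shared with miR-200c and miR-429, stood at 7.85 ± 0.24, 7.60 ± 0.22, 7.86 ± 0.11, 7.69 ± 0.06, 7.81 ± 0.07, 7.74 ± 0.21 and 7.77 ± 0.13 at the same times. For miR-200a the order from low to high was 24, 2, 6 and 12 h, 0 h, 48 h and 5 d, and for miR-200b it was 2, 12 and 48 h, 5 d, 24 h, 0 h and 6 h. No neighbouring groups in either order differed by more than 0.09, against a pooled SD within groups of 0.18 for miR-200a and 0.16 for miR-200b. At every later time the arrays of both members overlapped with those at 0 h.

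miR-429, the third hairpin of that cluster, varied most within groups, with a pooled SD of 0.30. Its arrays were at 7.88, 8.0 and 7.37 at 0 h, 7.53, 8.11 and 7.63 at 2 h, 7.51, 8.07 and 7.52 at 6 h, and 7.54, 7.60 and 7.97 at 12 h. They were at 7.56, 8.19 and 7.60 at 24 h, 8.08, 7.52 and 7.36 at 48 h, and 7.33, 7.46 and 7.46 at 5 d. In most groups 1 array stood well above the other pair, and the arrays at 5 d lay close together and low, yet overlapped with 0 h. The difference at 5 d from 0 h was -0.33 (SE 0.23, 95% interval -0.82 to 0.15, limma adjusted p = 0.521). No neighbouring groups in its order differed by more than 0.23.

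**Figure D1:**
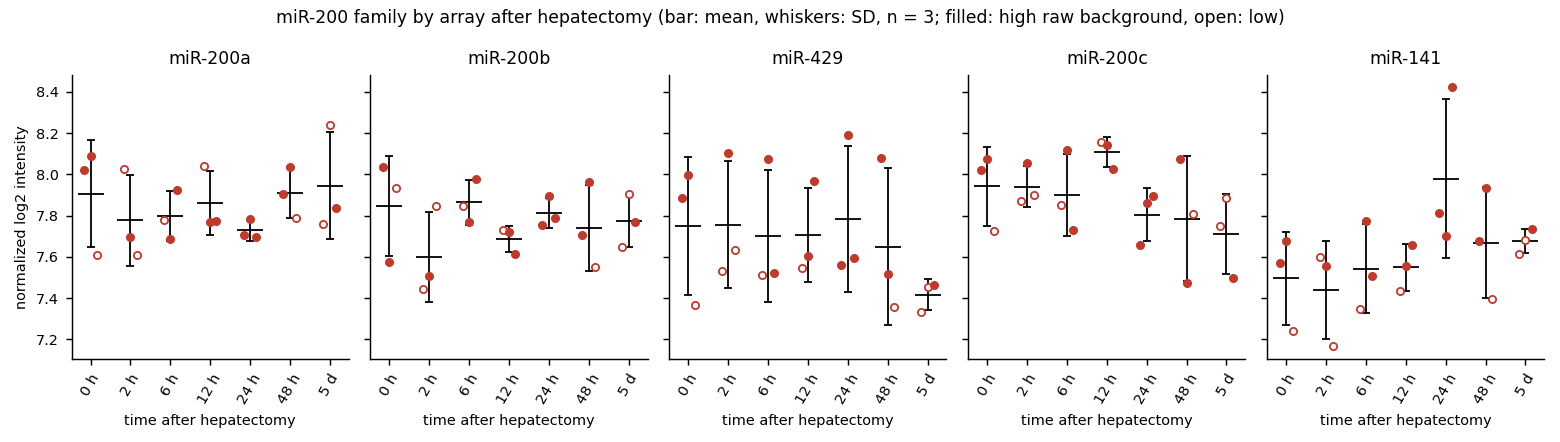
Normalized log2 intensity of each member on every hepatectomy array (y axis) by time after the operation (x axis), with the group mean as a bar, the SD as whiskers (n = 3), filled points for arrays of high and open points for arrays of low raw background. The 24 h array of miR-141 at 8.42 is the highest point of the 5 panels, and the 3 points of miR-200c at 12 h lie between 8.03 and 8.15.

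In the chromosome 4 cluster, miR-200c stood highest at 12 h, with arrays at 8.15, 8.14 and 8.03, against 8.02, 8.08 and 7.72 at 0 h. The difference was 0.17 (SE 0.16, 95% interval -0.17 to 0.50, adjusted p = 0.642), and the groups overlapped. Its mean was 7.94 ± 0.10 and 7.90 ± 0.20 at 2 and 6 h, and 7.80 ± 0.13, 7.79 ± 0.30 and 7.71 ± 0.20 (SD, n = 3) at 24 h, 48 h and 5 d. The means from 12 h on are thus in falling order, but the largest step between neighbours in the order of levels, 12 h over 0 h, was 0.17 against a pooled SD of 0.18. For day 5 the difference from 0 h was -0.23 (SE 0.16, 95% interval -0.57 to 0.10, adjusted p = 0.521).

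miR-141, which shares the cluster with miR-200c and the seed with miR-200a, gave the largest difference in the family. Its 24 h arrays were at 7.81, 7.70 and 8.42, against 7.57, 7.67 and 7.24 at 0 h. The groups did not overlap, though the lowest 24 h array exceeded the highest 0 h array by little and replicate 3 at 24 h stood apart. The difference was 0.48 (SE 0.19, 95% interval 0.09 to 0.88), which is 1.40-fold, and limma gave adjusted p = 0.105, so it did not pass the test. In raw units the median spot was at 1248, 928 and 1208 at 24 h, where the constants were 960, 840 and 912, and at 1048, 1088 and 488 at 0 h, where they were 1008, 1072 and 464. The excess over the constant was therefore 288, 88 and 296 units at 24 h and 40, 16 and 24 units at 0 h. On the same 24 h arrays 99.5%, 97.7% and 95.4% of all names lay above the constant, against 89.7%, 73.2% and 89.9% at 0 h.

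Without replicate 3 at 24 h, the miR-141 difference was 0.26 (adjusted p = 0.398). On that array, the middle spots of miR-141 (25th to 75th percentile) ran over 956 to 1540 units. At the other times the miR-141 means were 7.44 ± 0.24, 7.54 ± 0.22 and 7.55 ± 0.11 at 2, 6 and 12 h, 7.67 ± 0.27 at 48 h and 7.68 ± 0.06 at 5 d. The step of 0.30 between 24 h and the next highest group, 5 d, exceeded the pooled SD of miR-141, 0.24, and no other step between neighbours among the hepatectomy means of the 5 members exceeded its member's pooled SD.

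Counted over the family, none of the 5 members was called at any of the 6 later times, and 1 of the 30 differences from 0 h, that of miR-141 at 24 h, had an unadjusted p under 0.05. Of all 388 names, limma called 0 (0%) at 2 h and 1 (0.258%) at 6 h. It called 11 (2.84%) at 12 h, 30 (7.73%) at 24 h, 16 (4.12%) at 48 h and 1 (0.258%) on day 5. An unadjusted p under 0.05 was held by 24, 26, 73, 105, 62 and 53 of the 388 names at 2, 6, 12, 24 and 48 h and 5 d. At 2, 6, 12, 24 and 48 h and 5 d the median difference over the 5 members was -0.06, -0.04, -0.05, -0.04, -0.10 and -0.07, beside medians over all names of 0.03, 0.04, 0.05, 0.07, 0.09 and 0.03. All 6 comparisons share the 0 h arrays. At 24 h, the time with the most calls, 33.0% of all names did not overlap between the groups, as did 1 of the 5 members.

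The unadjusted 95% intervals give the range of differences compatible with these arrays at each time. They do not mark the largest change that the adjusted test could have missed. Over the 6 times they reached from 1.43-fold lower to 1.30-fold higher than 0 h for miR-200a and from 1.48-fold lower to 1.25-fold higher for miR-200b. For miR-429 they reached from 1.76-fold lower to 1.43-fold higher, and for miR-200c from 1.48-fold lower to 1.42-fold higher. For miR-141 the limits were 1.37-fold lower and 1.84-fold higher. Since the family lies near background and background compresses a fold, these limits hold for the normalized intensity and not for the number of molecules.

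**Figure D2:**
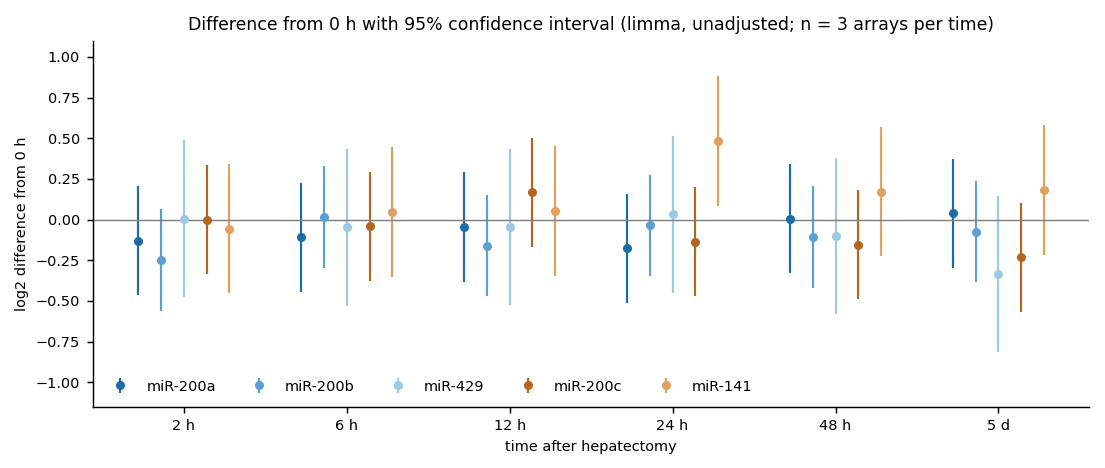
Log2 difference of each member from 0 h (y axis) at the 6 later times (x axis), as points with unadjusted 95% confidence intervals from limma (n = 3 arrays per time). Of the 30 intervals, 29 hold 0, and the exception is miR-141 at 24 h with 0.09 to 0.88.

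The sham series, which starts at 12 h, asked whether the family differed among times after surgery without removal of liver. None of the 5 members passed limma's F test over 12, 24 and 48 h, where 0 of 680 names (0%) were called and 45 had an unadjusted p under 0.05. None passed at 24 h against 12 h (0 of 680 names called, 0%, with 61 at an unadjusted p under 0.05) or at 48 h against 12 h (0 of 680, 0%, with 45). miR-200a, miR-200c and miR-141 differed from 12 h by at most 0.12 at either time. The family's median difference was 0.04 at 24 h and -0.02 at 48 h, beside -0.03 over all names at each.

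miR-429 was lowest in the 24 h sham livers, with arrays at 7.01, 6.91 and 6.89, against 7.14, 7.32 and 7.17 at 12 h. The groups did not overlap, which held for 1 of the 5 members and for 95 of all 680 names (14%). The difference was -0.27 (SE 0.09, limma adjusted p = 0.31), and the F test had adjusted p = 0.684. Neither passed, though both had an unadjusted p under 0.05. At 24 h its median spots lay at -8, -12 and -12 units from the constant, so miR-429 was not above background there and no fold is given. At 12 h they lay at 4, -8 and 8 units from it.

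miR-200b had the largest spread of the 5 members on the sham arrays. It was at 7.38, 7.30 and 7.21 at 12 h, at 7.10, 8.30 and 7.89 at 24 h and at 7.20, 7.98 and 7.88 at 48 h. Replicates 2 and 3 of the later times were high and replicate 1 of each was as low as 12 h, so the groups overlapped. The difference from 12 h was 0.47 at 24 h (SE 0.27, 95% interval -0.13 to 1.06, adjusted p = 0.579) and 0.39 at 48 h (SE 0.27, adjusted p = 0.837). The median spot on the 4 high arrays was 116 to 252 units above the constant, and on the other 5 it lay between -24 and 32 units from it.

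The same 4 arrays had the widest signal span, meaning the distance on the log2 scale between an array's median and its 95th percentile. Span was 1.48, 1.50 and 1.38 at 12 h, 1.55, 2.08 and 1.67 at 24 h, and 1.39, 1.77 and 1.76 at 48 h. With span as a covariate the miR-200b difference was -0.13 at 24 h (adjusted p = 0.948) and 0.03 at 48 h (adjusted p = 0.998). No other member separated these 4 arrays from the rest, and why miR-200b did was not tested. The pattern was not confined to miR-200b. The 3 names most like it over the hepatectomy arrays, miR-146a, miR-199a-3p and miR-29c, had r of 0.877, 0.859 and 0.855 with it over the 9 sham arrays. These r are a description without a test. Over all 680 names the range of sham group means had a median of 0.13, against 0.47 for miR-200b and 0.27 for miR-429, while the other members stood at 0.06 to 0.12.

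**Figure D3:**
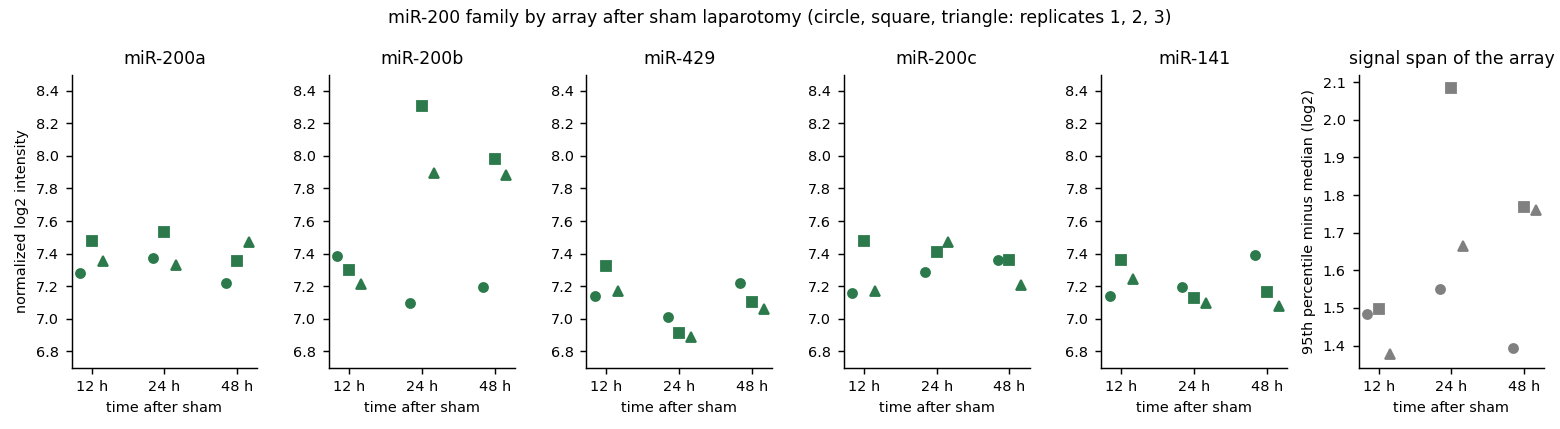
Normalized log2 intensity of each member on every sham array (y axes of the first 5 panels) by time after sham laparotomy, with circles, squares and triangles for replicates 1, 2 and 3, and the signal span of each array in the last panel. The miR-200b points at 7.88 to 8.30 belong to the 4 arrays of widest span, 1.67 to 2.08.

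The passenger strands were as dim as the guide strands, apart from miR-200b on its 4 high arrays. miR-200a*, miR-200b*, miR-200c* and miR-141* exceeded the constant in 25 of 36 values, over a range of -36 to 64 units. On the median sham array 81.8% of all names exceeded it. None of the 4 was called at 24 or 48 h against 12 h. The smallest p was that of miR-200a* at 48 h, with a difference of -0.19 (SE 0.09, limma adjusted p = 0.731). miR-200b*, from the hairpin of the member with the largest spread, had group means within 0.12 of each other.

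Hepatectomy was then set against sham at the same time, on 376 names that both layouts share. At 24 h, miR-141 was higher after hepatectomy. Its arrays were at 7.68, 7.53 and 8.65 after hepatectomy, against 7.45, 7.40 and 7.30 after sham, without overlap. On those sham arrays its median spot lay only 16, 32 and 12 units above the constant, near background. The difference was 0.57 (SE 0.19, 95% interval 0.18 to 0.96, limma adjusted p = 0.0498), or 1.49-fold in normalized intensity. It made miR-141 1 of 43 names called (11.4%). This call was just inside the threshold of 0.05. It was lost without replicate 3 of the hepatectomy arrays (0.22, adjusted p = 0.423), without any 1 of the 3 sham arrays (adjusted p = 0.0667 to 0.155), and under 10 of 12 other processing settings. Over those 12 the difference was 0.35 to 1.80, with the same sign in all.

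miR-429 differed by as much at 24 h without passing. It was at 7.48, 8.08 and 7.39 after hepatectomy, against 7.18, 7.07 and 6.96 after sham, without overlap. The difference was 0.58 (SE 0.20, 95% interval 0.17 to 0.99, adjusted p = 0.0596), and 4 of 12 other settings placed it past the threshold. Its sham arrays were the ones below the constant, so no fold is given. Without replicate 2 at 24 h after hepatectomy the difference was 0.37 (adjusted p = 0.304), and without replicate 3 it was 0.71 (adjusted p = 0.0396).

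The other 3 members gave no call at 24 h. miR-200a differed by -0.15 on the log2 scale (adjusted p = 0.511), with arrays at 7.59, 7.59 and 7.46 after hepatectomy and at 7.68, 7.81 and 7.61 after sham, which did not overlap. miR-200c, the cluster neighbour of miR-141, differed by -0.05 (95% interval -0.39 to 0.29, adjusted p = 0.922). miR-200b differed by -0.27 (SE 0.20, adjusted p = 0.404), against sham arrays that include the spread above. In all, 3 of 5 members did not overlap between the operations at 24 h, where 37.2% of all names did not.

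At 12 h, miR-200c was the member that stood apart. It was at 7.97, 7.96 and 7.86 after hepatectomy, against 7.35, 7.81 and 7.32 after sham, without overlap, as for 26.3% of all names. The difference was 0.44 (SE 0.17, 95% interval 0.10 to 0.78, adjusted p = 0.121), so it did not pass. On the 12 h sham arrays the median spots of miR-200c lay at 12, -16 and 12 units from the constant, so it was near background there. The differences of the other 4 members were 0.01 to 0.24. limma called 4 of 376 names (1.06%), none of them a member, and 75 had an unadjusted p under 0.05. At 48 h it called 9 (2.39%), none of them a member, with differences of -0.27 to 0.22. No member had an unadjusted p under 0.05 there, as 55 of 376 names did, and all 5 overlapped between the groups, where 17.8% of all names did not.

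**Figure D4:**
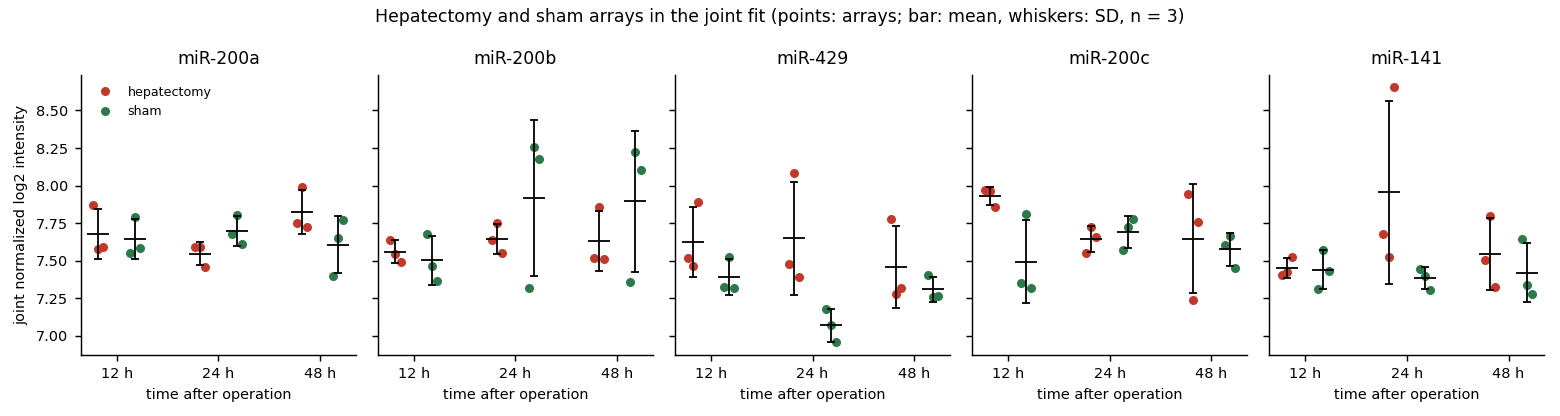
Joint normalized log2 intensity (y axis) of each member on hepatectomy arrays (left of each pair) and sham arrays (right) at 12, 24 and 48 h (x axis), with group means as bars and SD as whiskers (n = 3). At 24 h the hepatectomy mean of miR-141 was 7.95 against 7.38 for sham, and 1 hepatectomy array lies at 8.65.

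Whether the change between times differed between operations was asked in the same fit, where a constant offset between layouts cancels. The change from 12 to 24 h after hepatectomy, minus that after sham, was 0.56 for miR-141 (SE 0.27, limma adjusted p = 0.904). It was -0.48 for its neighbour miR-200c (SE 0.23, limma adjusted p = 0.904). Both miR-141 and miR-200c lay near background on the 12 h sham arrays. These members of 1 cluster thus had estimates of opposite sign, and neither passed, with both at an unadjusted p under 0.05. The remaining 3 members were at -0.33 to 0.34. From 12 to 48 h the 5 differences in change were -0.36 to 0.18, with none at an unadjusted p under 0.05. No name of 376 was called in the comparison at 24 h (0%), with 18 at an unadjusted p under 0.05, or at 48 h (0%), with 11.

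Members of 1 cluster showed little common variation on these arrays. Over the 21 hepatectomy arrays, the 4 pairs of members from 1 cluster had Pearson r between -0.13 and 0.08. Over all pairs of names on these arrays the median r was 0.004, with a range of -0.93 to 0.948, and over the 10 member pairs it was 0.027. The pair of miR-429 and miR-200c, which share a seed and lie on different chromosomes, had r = 0.575 (permutation p = 0.00681, adjusted p = 0.0681 over the 10 pairs) and Spearman rho = 0.635 (permutation p = 0.00246, adjusted p = 0.0246). Without the 2 arrays farthest from the median of miR-429, r was 0.632. It was 0.688 on the 13 arrays of high raw background, 0.645 on the 8 of low raw background, and 0.603 with the 7 group means removed.

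The other 9 pairs had r between -0.32 and 0.17, and none passed. Without normalization between arrays, all 10 pairs had r of 0.598 to 0.825. On the 9 sham arrays miR-429 and miR-200c had r = -0.124 (exact permutation p = 0.746). Their sham r was -0.385 without the 2 farthest arrays and 0.529 with the group means removed. The highest r on the sham arrays, without any such removal, was 0.795 for miR-429 and miR-141 (exact permutation p = 0.0104, adjusted p = 0.104). Its rho was 0.783 (exact permutation p = 0.0172, adjusted p = 0.172), and r was 0.654 without the 2 farthest arrays and 0.925 with the group means removed. For miR-200b, whose sham arrays fall into separate sets, r was 0.511 with miR-200a and 0.317 with miR-200c. It was -0.631 with miR-429 and -0.658 with miR-141, and none of these passed.

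**Figure D5:**
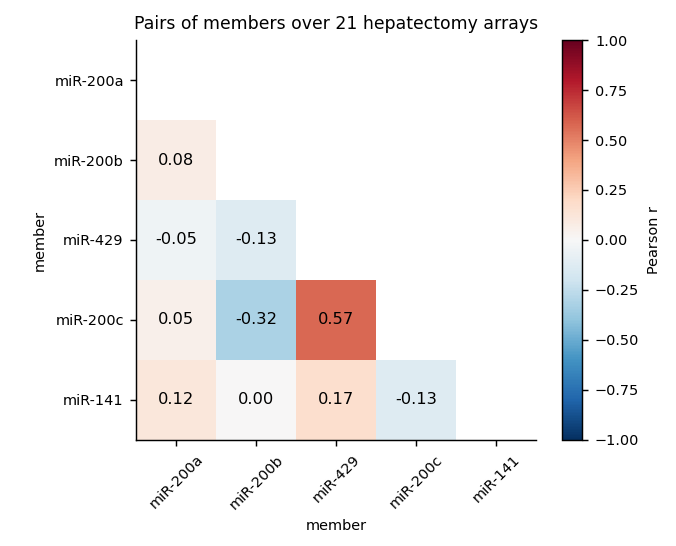
Pearson r between the normalized log2 levels of each pair of members over the 21 hepatectomy arrays, with rows and columns for the members and colour for r. The pair of miR-429 and miR-200c is at 0.57, and the other 9 pairs lie between -0.32 and 0.17.

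The names with the pattern most like each member over the 21 hepatectomy arrays were ranked by Pearson r, as a description without a test. For miR-200b they were miR-146a (0.659), miR-199a-3p (0.658) and miR-29c (0.569). For miR-200c they were miR-341 (0.813), miR-295 (0.808) and miR-471 (0.802), and for miR-429 they were miR-206 (0.778), miR-493 (0.775) and miR-664 (0.765). miR-141 was most like miR-7a* (0.764), miR-30c-1* (0.722) and miR-381 (0.72). miR-200a was most like miR-711 (0.586), miR-331 (0.577) and miR-324-5p (0.577). No member of the family was among the 3 nearest of another, and these maxima are taken over all other names, on arrays that share their normalization.

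Other epithelial miRNAs were examined beside the family. Of 7 such names, miR-31, miR-96, miR-182, miR-183, miR-203, miR-205 and miR-375, none was called against 0 h at any time. Their median difference was -0.02, -0.07, -0.08, -0.06 and -0.16 at 2, 6, 12, 24 and 48 h and -0.10 at 5 d. miR-31 stood above the constant on all 21 hepatectomy and all 9 sham arrays, and the other 6 did so on 13 to 20 and on 2 to 9. At 24 h against sham, 1 of the 7 was called, where 11.4% of all names were. This was miR-205 of stratified epithelia, higher after hepatectomy (0.51, SE 0.15, limma adjusted p = 0.0251). In that comparison 5 of the 7 estimates were below 0, with a median of -0.13. Like miR-429, miR-205 was dim on the sham arrays, where it exceeded the constant on 2 of 9.

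Names of other liver cell types were examined in the same comparisons. At 24 h against 0 h, 4 of 22 such names passed, where 7.73% of all names did. miR-126, an endothelial miRNA, fell by 1.52 on the log2 scale (SE 0.36, limma adjusted p = 0.0113). The other endothelial name, miR-126*, was at 0.01 and did not pass (adjusted p = 0.976). The others that passed were miR-145 of mesenchymal cells at -1.12 (adjusted p = 0.015) and the leukocyte names miR-142-5p at 0.49 (adjusted p = 0.042) and miR-146a at -0.68 (adjusted p = 0.039). Of the mesenchymal names, 4 of 5 were below 0, as were 4 of 5 leukocyte names. At 24 h against sham, the comparison that called miR-141, 3 of the 22 were called, all lower after hepatectomy, where 11.4% of all names were called. These were miR-146a at -0.82 (adjusted p = 0.00538), miR-145 at -0.89 (adjusted p = 0.00881) and miR-199a-3p of mesenchymal cells at -0.50 (adjusted p = 0.026). The other mesenchymal names were miR-143 at -0.81 (adjusted p = 0.0637), miR-199a-5p at -0.03 (adjusted p = 0.95) and miR-214 at 0.86 (adjusted p = 0.138). Of 5 leukocyte names, 2 were above 0. Among sham arrays, at 24 h against 12 h, miR-146a, miR-145 and miR-199a-3p were at 0.58, 0.61 and 0.45, and none was called.

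Elsewhere, at 12 h against 0 h, miR-142-5p was at 0.56 (limma adjusted p = 0.0376) and miR-146a at -0.85 (adjusted p = 0.0179). At 48 h against sham, miR-199a-3p was at -0.69 (adjusted p = 0.00825), while miR-214 was at 0.93 and did not pass (adjusted p = 0.207). No hepatocyte name of 8 and no erythroid name of 2 was called in any comparison between times or operations. For miR-122 the difference from sham was 0 at 24 and 48 h. Common quantiles give that value to a name of the same rank on every array, so those comparisons could not have called it. At 24 h against 0 h, 7 of 8 hepatocyte names were below 0, with a median of -0.49, and miR-122 was at -1.41 (limma adjusted p = 0.105). The part of these cell types in the family's values was not tested.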

How the data were processed

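The 30 rat liver samples were run on 1-colour febit microfluidic chips, where a bound miRNA serves as primer for an extension with biotin, per the labels' protocols. Total RNA was isolated with a kit that retains small RNA, per the labels. The authors deposited raw spot intensity on a linear scale, background-subtracted intensity per spot for the sham arrays, and its median per name for all arrays. A table of processed values on a log2 scale, deposited by the authors for 323 names and no star strand, held column medians of 5.64 to 6.09. It ranked the names of each array as the background-subtracted medians did (Spearman rho of 1 on all 30), and the sources used here state neither its normalization nor the image software.

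With limma 3.58.1 in R 4.3.3, normexp (offset 50) corrected the raw intensity for background. After the log2 step, arrays were brought to common quantiles and the spots of a name were averaged. In the joint fit of both operations, spots were averaged first, because the layouts differ. Missing spots, 0.585% of the hepatectomy and 0.811% of the sham table, were left out of the averages. Names were matched between layouts after writing star strands alike. lmFit and eBayes were run over all groups of a fit, with 14, 6 and 20 residual degrees of freedom for the hepatectomy, sham and joint fits. Tests were two-sided, with Benjamini-Hochberg adjustment over every name of a comparison and a threshold of 0.05. The number of arrays limits the precision, with a median standard error of 0.192 between hepatectomy times, 0.105 between sham times and 0.166 between operations. Correlations used permutation tests with 1e+05 resamples over the hepatectomy arrays and exact ones over the sham arrays. The procedures were tested on simulated data. The changes put into the simulated limma fits were larger than any member's difference in the main fits, so recovery of smaller changes was not tested.

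The raw and the processed tables give 4 columns different replicate letters, always within a group, at 2 h and 48 h after hepatectomy. Replicate numbers here follow the raw tables, and the background constants were matched accordingly. Deviations from the group mean in samples with the same replicate number had r of -0.765 to 0.783 over 63 hepatectomy pairs. Their median r was 0.15, against -0.128 for pairs with other numbers, and in the sham table it was 0.216 against -0.0673. The labels tie the numbers to nothing shared, so the main fits did not pair the arrays. A fit with the number as a block is given below.

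The 5 members were named in every comparison, with any star strand of theirs on a layout. Members of 6 cell type lists were named where they passed, the 2 farthest from 0 in a list, and for each member the 3 names most like it. Levels of miR-122 and of the 7 other epithelial names against background were added after values were seen. So were the values of list members that did not pass. The members and lists were chosen with earlier results of these data known. Sequences come from RefSeq tables of the rat assembly GRCr8, matched by miRNA name. The sources used here do not state whether the probes of a name have the same sequence on the layouts.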

Additional observations from a re-analysis of the deposited data

How the results depend on the processing

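The family's lack of calls against 0 h, in either time course, among sham times, at 48 h against sham and in both comparisons of changes was the same under every alternative run and without each array in turn. The number of members called, hepatectomy against sham, did depend on the processing. At 12 h it was 0, but 3 with no normalization, which shifted the median of all names by 0.64, and 1 with array weights. At 24 h it was 1, but 0 with median or 75th percentile centring, no normalization, no background correction, the authors' processed values, the median of spots, signal span as a covariate or only the compared groups. It was 2 with array weights and 2 with names that are not star strands, an alternative chosen after seeing the data. Leaving out 1 array gave 0 to 1. With the replicate number as a block, the 24 h count stayed 1, but the member called was miR-429 (0.58, adjusted p = 0.038) in place of miR-141 (0.57, adjusted p = 0.0575), and no other call of a member changed. With the authors' background-subtracted values the 24 h count was also 1, and the member called was again miR-429 in place of miR-141. Among results that did not pass in either setting, 177 values of single members changed sign. The filter on names above the median level dropped some members, so it gave no count of members. The causes were not tested. Limits are the dim signal near the background constant, 3 arrays per group, and a chip layout that follows the operation.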
